A study of Mus musculus with 24 samples.

Results

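The transcription factor genes Tcf7 and Foxo3, and 6 further genes (Obox1, Obox3, Mcf2l, Chd2, Prep and Tbx3os1), were followed as sources of small RNA fragments in extracellular vesicles (EVs) of mouse CD4+ T cells. These 8 of the 4408 features in the deposited counts were chosen by name. The reason was that their fragments stood high in EVs of stimulated cells when set against DMSO EVs and against stimulated cells. The choice also used the change of the EV-to-cell ratio between resting and stimulated cultures. The levels in those groups are therefore a description, with no test. The counts are of short reads that map inside a gene, so they are not levels of its mRNA or protein.

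The 24 small RNA libraries came from wild-type C57BL/6 T cells of spleen and lymph nodes, with RNA extracted by Trizol, in 8 groups of 3. Stimulated cultures had 3 days of plate-bound anti-CD3 (2 µg/ml) with anti-CD28 (5 µg/ml), and gave stimulated EVs and stimulated cells. GW4869 cultures, with an inhibitor of the neutral sphingomyelinase that takes part in vesicle release, and DMSO cultures, with its solvent, were also stimulated for 3 days, at antibody doses not given in the sources used here. Resting cultures were not naive: the cells were stimulated for 2 days, expanded for 1 day and rested for 2 days in medium with IL2, and EVs and cells were taken from each kind of culture. No transgene or deleted allele is named in any group. The labels do not say if a group's 3 libraries stand for different mice or culture dishes, so errors and p-values measure the spread between libraries, which may be technical.

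Total counts per library were 2202869 to 2731956 in stimulated EVs, 1290918 to 1663560 in GW4869 EVs, 2068951 to 2579407 in DMSO EVs and 1988062 to 3231626 in resting EVs, and 1551155 to 2742635 in the cell groups. Levels are given as CPM, counts per 1e6 of a library total that was scaled between libraries by its TMM factor. Of 9 marker RNAs of T cells and other blood cells, 7 were listed in every library (Cd3e, Ptprc, Mir142, Mir150, Mir155, Mir181a-1 and Mir181b-1). Their summed levels were 55290 to 62360 CPM in stimulated EVs, 20860 to 32840 CPM in GW4869 EVs, 35340 to 69470 CPM in DMSO EVs and 173600 to 243600 CPM in resting EVs. Among markers of other cell types, the erythroid Mir451a stood at 33.06 to 71.87 CPM in stimulated EVs and 31.13 to 53.57 CPM in DMSO EVs. Mir126a of endothelium and platelets stood at 78.31 to 85.99 CPM in stimulated EVs and 47.1 to 88.55 CPM in DMSO EVs, and the epithelial Mir141 and Mir200c together at 88.49 to 108.9 CPM in stimulated EVs and 43.37 to 83.68 CPM in DMSO EVs. The marker RNAs of myeloid cells, liver, muscle and stroma were not among the 4408 listed features, the smallest count of which was 4.

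Tcf7 encodes TCF1, a DNA-binding partner of beta-catenin that keeps naive and memory T cells in their undifferentiated state and is turned down when effector cells form. Foxo3 encodes a forkhead transcription factor of quiescence and survival, which AKT signalling holds outside the nucleus in activated cells. Vesicles that leave a T cell carry short pieces of many RNAs, and such pieces can come from exons or introns.

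Tcf7 lies on chromosome 11, 52252371 to 52283014 on the minus strand, and Foxo3 on chromosome 10, 42181841 to 42276755 on the minus strand (GENCODE M21, GRCm38). RefSeq (GRCm38.p6) had promoter windows of 300 bases, 250 before to 50 after a start, for 6 of the 8 genes, 12 windows in all, and the windows of the pair of named factors are shown because each factor's own binding motif can be read for in them. The first is the inner Tcf7 start (chr11:52282546-52282845, minus strand), with capitals on a forkhead core, GTAAACA, and on a TATA box, TATAAA, which lies on the other strand and reads TTTATA here. The second is the Foxo3 start (chr10:42276646-42276945, minus strand), which held none of the motifs searched and so has no capitals.
Tcf7 inner start: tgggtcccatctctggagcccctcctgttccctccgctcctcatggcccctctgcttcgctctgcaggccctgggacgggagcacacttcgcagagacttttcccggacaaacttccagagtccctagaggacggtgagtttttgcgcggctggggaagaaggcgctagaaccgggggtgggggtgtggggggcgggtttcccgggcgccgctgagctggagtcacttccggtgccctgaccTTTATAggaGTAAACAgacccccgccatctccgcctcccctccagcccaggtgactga
Foxo3 start: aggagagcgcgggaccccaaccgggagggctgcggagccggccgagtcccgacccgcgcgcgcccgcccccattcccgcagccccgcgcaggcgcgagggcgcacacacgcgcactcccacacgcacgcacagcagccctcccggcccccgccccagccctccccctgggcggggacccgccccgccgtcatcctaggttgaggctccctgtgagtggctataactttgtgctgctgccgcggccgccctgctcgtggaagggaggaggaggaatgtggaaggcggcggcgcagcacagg
The outer Tcf7 start (chr11:52282965-52283264, minus strand) held none of the motifs and was 76.3% G and C. On both strands, the forkhead core was found in 3.65% of the 32851 RefSeq promoter windows, the TATA box in 13.6%, the TCF/LEF core CTTTGAT in 3.73% and the E-box CACGTG in 7.15%. The TCF/LEF core and a TATA box were found in the Obox3 window (chr7:15639728-15640027, minus strand), and the other 8 windows held none of the 4 motifs. The matches found did not overlap each other. These are letter matches within the windows and not sites of binding.

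Fragments within Tcf7 stood far higher in stimulated EVs than in any other group. Tcf7 had 656, 777 and 296 counts in the 3 stimulated EV libraries, against 34, 4 and 13 counts in DMSO EVs. Scaled for library size, these were 164, 225.3 and 107.4 CPM in stimulated EVs (165.6 ± 58.97, SD, n = 3), against 9.047, 1.771 and 3.718 CPM in DMSO EVs (4.845 ± 3.767). All 3 stimulated EV libraries lay above all DMSO EV libraries, and the log2 fold was 5.00 ± 0.40 (SE), or 5.82 without DMSO EVs replicate 1. CPM are relative levels and not plain shares of a library's counts. Each library total was first multiplied by its TMM factor, which ran from 0.5628 in resting cells replicate 2 to 1.765 in GW4869 EVs replicate 1. Neither the number of vesicles nor the amount of fragments per vesicle was measured.

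The other groups were at low levels of Tcf7 and fell into 2 steps. Resting EVs (20.29 ± 4.14 CPM) and resting cells (20.44 ± 0.639 CPM) overlapped each other and lay above every other group but stimulated EVs. GW4869 EVs had 3.072, 10 and 6.122 CPM, and stimulated, GW4869 and DMSO cells had means of 7.01, 10.07 and 7.416 CPM, all of which overlapped along the order of the means. Stimulated cells were thus below resting cells in Tcf7 fragments, with a log2 fold of -1.53 ± 0.42, while stimulated EVs were above resting EVs by 3.04 ± 0.36. DMSO EVs, although from stimulated cultures, were below resting EVs by a log2 fold of -1.96 ± 0.41, without overlap of libraries. It was -2.77 without DMSO EVs replicate 1, and -0.83 with library totals as the scaling.

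Foxo3 fragments were highest in stimulated EVs too, but were also above the level of the cells in the other EVs. Foxo3 had 916, 1036 and 157 counts in stimulated EVs, which is 229, 300.5 and 56.99 CPM (195.5 ± 125.1, SD, n = 3), against 103, 37 and 97 counts, or 27.41, 16.38 and 27.74 CPM, in DMSO EVs (23.84 ± 6.464). GW4869 EVs stood at 36.69 ± 9.24 CPM and resting EVs at 16.91 ± 5.97 CPM, and GW4869, DMSO and resting EVs overlapped along that order. All 4 groups of cells overlapped, with means from 5.876 CPM in resting cells to 7.076 CPM in GW4869 cells. The log2 fold of stimulated over DMSO EVs was 3.02 ± 0.40, the lowest among the 8 genes, and that of stimulated EVs over stimulated cells was 4.91 ± 0.46, the highest. With stimulated EVs replicate 3 left out the first was 3.46, and with replicate 2 left out it was 2.57. The lowest stimulated EV library was 1.24 times the highest other library, GW4869 EVs replicate 3 at 46.12 CPM, so for Foxo3 the separation was narrow.

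**Figure D1:**
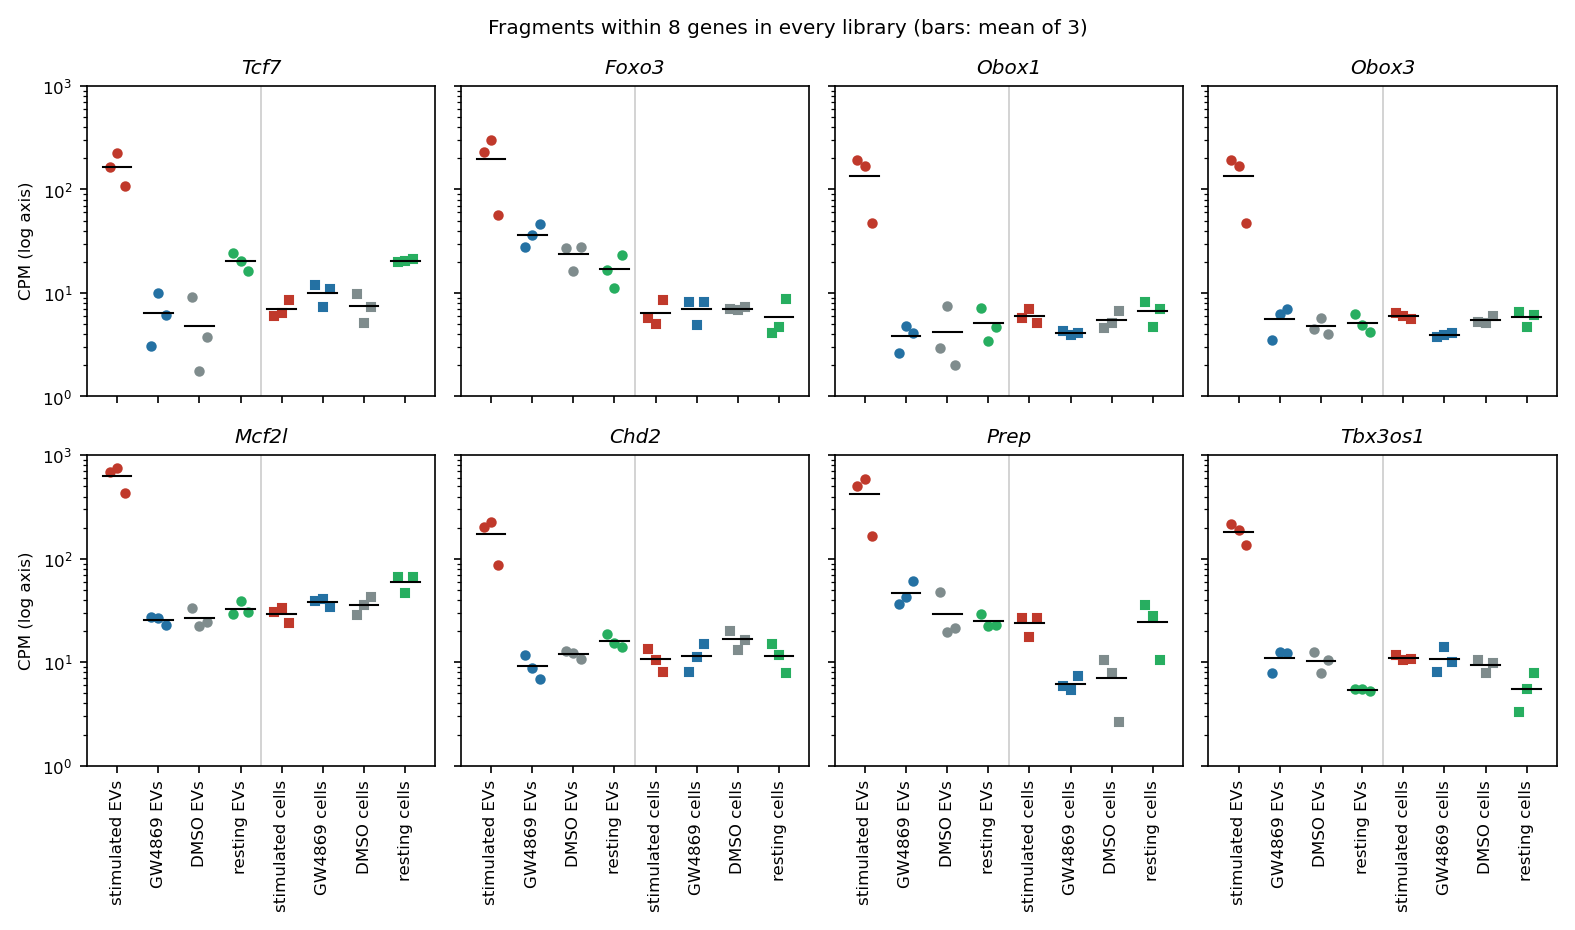
Levels of fragments within each of the 8 genes, as CPM on a log axis, in every library of the 8 groups, with circles for EVs, squares for cells and bars for the means of 3 libraries. Stimulated EVs stand apart in every panel, while Foxo3 and Prep also stand higher in GW4869 and DMSO EVs than in the matching cells.

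Obox1 and Obox3 are members of the oocyte-specific homeobox family, whose proteins act in the activation of the genome of the mouse embryo. They overlap on opposite strands of chromosome 7, Obox1 at 15388948 to 15556866 (plus) and Obox3 at 15479825 to 15639902 (minus), over 77042 bases. Obox1 had 773, 582 and 131 counts and Obox3 had 771, 579 and 131 counts in stimulated EVs. In the other 21 libraries Obox1 had 5 to 17 counts and Obox3 had 6 to 18. The counts of the pair differed by at most 3 in stimulated EVs and by at most 7 elsewhere, so both names may hold the same reads. At the low counts elsewhere the likeness was looser: Obox1 was 100 to 100.5% of Obox3 in stimulated EVs, but 58.8 to 76.5% in GW4869 EVs and 50 to 130.8% in DMSO EVs. Which strand or gene the reads came from was not tested.

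Their annotated transcripts also repeat each other. Of the 1833 distinct runs of 20 bases in Obox1 transcripts, 81% also occurred in another gene, and 304 occurred in Obox3. The longest coding stretch common to both, 54 bases in transcripts Obox1-206 and Obox3-201, is shown because a fragment from it would match both genes.
Obox1 and Obox3 shared run: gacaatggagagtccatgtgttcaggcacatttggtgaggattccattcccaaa
Of the 3070 runs of Obox3, 39.5% occurred in another gene. The shares were 1.54% for Tcf7, 1.36% for Foxo3, 2.46% for Prep, 4.08% for Mcf2l, 6.41% for Tbx3os1 and 19.6% for Chd2. Introns, which make up most of each locus, were not searched.

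Obox1 averaged 136.5 ± 78.02 CPM in stimulated EVs and 4.152 ± 2.959 CPM in DMSO EVs, a log2 fold of 5.13 ± 0.44. Without DMSO EVs replicate 2 it was 5.76. Obox3 averaged 136.1 ± 77.66 CPM in stimulated EVs and 4.761 ± 0.9 CPM in DMSO EVs, a log2 fold of 4.85 ± 0.38. In the other 7 groups the means were 3.844 to 6.667 CPM for Obox1 and 3.936 to 5.976 CPM for Obox3, and neighbours along the order of the means overlapped. These low levels rest on 5 to 17 counts for Obox1 and 6 to 18 for Obox3, where the smallest count in the deposited files was 4.

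**Figure D2:**
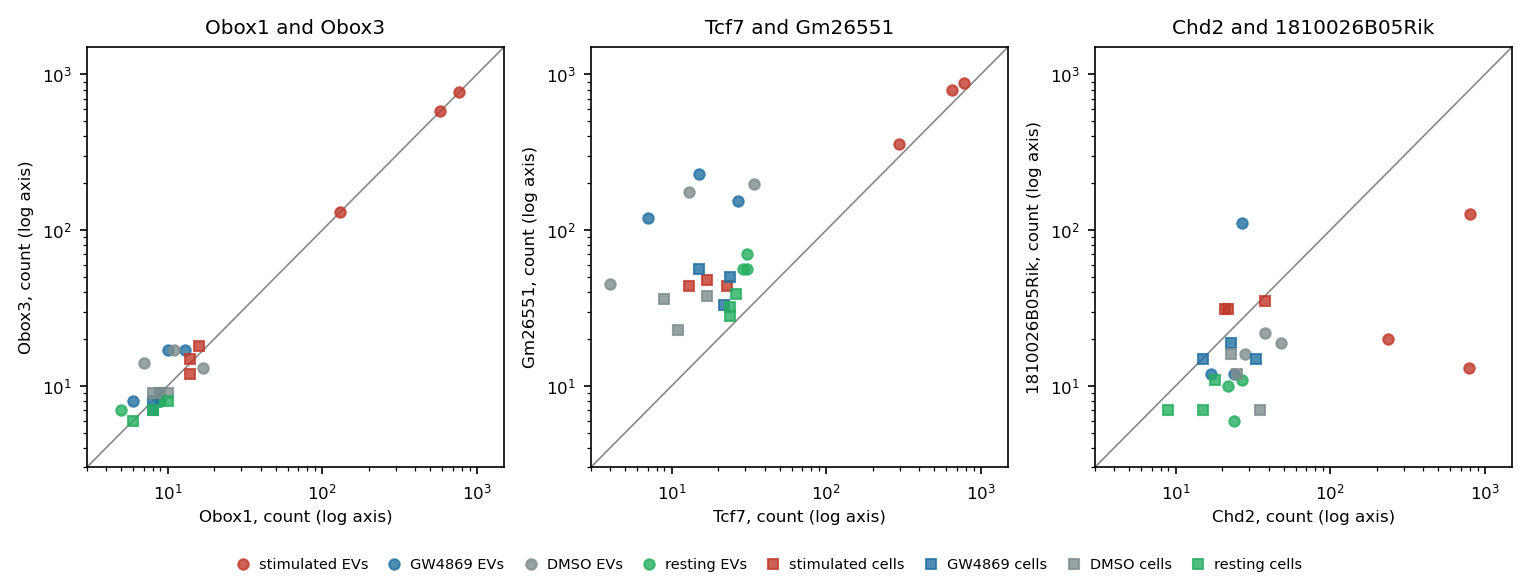
Counts of overlapping features in each of the 24 libraries, on log axes, with the line of equal counts. Obox3 follows Obox1 along the line. Gm26551 lies above Tcf7 in every library and comes closest in stimulated EVs (Tcf7 at 83.1 to 88.4% of Gm26551) and resting cells (66.7 to 85.7%). 1810026B05Rik does not follow Chd2 into stimulated EVs replicates 2 and 3 (13 and 20 counts), but has 128 counts in replicate 1.

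Tcf7 also shares its locus. The long non-coding gene Gm26551 overlaps it on the same strand over 17144 bases, 55.9% of Tcf7, and its counts were 789, 879 and 356 in stimulated EVs, against 198, 45 and 177 in DMSO EVs. Tcf7 counts made up 83.1 to 88.4% of those of Gm26551 in stimulated EVs, but 5.83 to 17.4% in GW4869 EVs and 7.35 to 17.2% in DMSO EVs. The share was 66.7 to 85.7% in resting cells, which reached into the range of stimulated EVs. It was 44.3 to 55.4% in resting EVs and 25 to 66.7% in the other cells. The counts of Gm26551 beyond those of Tcf7 were 60 to 133 in stimulated EVs, 113 to 215 in GW4869 EVs and 41 to 164 in DMSO EVs, so these ranges overlapped between stimulated and DMSO EVs while the counts of Tcf7 did not. These remainders take every Tcf7 read to be counted for Gm26551 too, which was not tested, although only 55.9% of Tcf7 lies in the overlap. Reads of the stretch shared by both genes cannot be told apart in the counts. Chd2 overlaps 1810026B05Rik over 2628 bases, which had 128, 13 and 20 counts in stimulated EVs beside the 806, 788 and 238 of Chd2. Foxo3 overlaps no other annotated gene. Small RNA genes that are not listed features lie inside other loci. The miRNA Gm38671 lies in Mcf2l (130 bases, same strand) and the miRNA Gm23766 in Prep (80 bases, opposite strand). The snRNA Gm25354 lies in Obox3 (105 bases, opposite strand). Runs of 20 bases shared with annotated small RNAs numbered 134 in Mcf2l transcripts, 41 in Chd2 and 0 to 6 in the other genes. Whether reads came from such small RNAs was not tested.

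The remaining 4 genes are Mcf2l, Chd2, Prep and Tbx3os1. Mcf2l (chromosome 8, 12873806 to 13020905, plus strand) had 693.2, 752.9 and 429.4 CPM in stimulated EVs (625.2 ± 172.1), against 26.72 ± 5.73 CPM in DMSO EVs, a log2 fold of 4.54 ± 0.25. Chd2 (chromosome 7, 73426638 to 73541830, minus strand) encodes a chromatin remodeller, and had 201.5, 228.5 and 86.39 CPM in stimulated EVs (172.1 ± 75.48), against 12.01 ± 1.01 CPM in DMSO EVs, a log2 fold of 3.84 ± 0.32. Neither had EVs above cells in any culture but the stimulated one, without overlap of libraries.

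Prep (chromosome 10, 45067203 to 45167198, plus strand) encodes prolyl endopeptidase, which cuts short peptides after proline. It had 505.2, 587.3 and 165.9 CPM in stimulated EVs (419.5 ± 223.4), against 47.63, 19.48 and 21.45 CPM in DMSO EVs, a log2 fold of 3.81 ± 0.43. Tbx3os1 (chromosome 5, 119570130 to 119671365, minus strand), an antisense RNA gene beside Tbx3, had 215.5, 191.4 and 136.5 CPM in stimulated EVs (181.1 ± 40.49), against 10.35 ± 2.28 CPM in DMSO EVs, a log2 fold of 4.10 ± 0.26. Its lowest stimulated EV library was 9.64 times its highest other library, the widest gap among the 8 genes.

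Over the 8 genes, stimulated EVs lay above DMSO EVs without overlap in 8 of 8, where 15% of all features did so, and the median log2 fold was 4.32, against -0.03 for all 4408 features. Stimulated EVs also lay above stimulated cells in 8 of 8 (34.2% of all features), with log2 folds of 3.999 for Chd2 to 4.91 for Foxo3 and a median of 4.46, against 0.07 for all features. They lay above GW4869 EVs in 8 of 8 (28.9% of all features), with log2 folds of 2.41 for Foxo3 to 5.12 for Obox1, and above resting EVs in 8 of 8 (33% of all features), with 3.04 for Tcf7 to 5.05 for Tbx3os1. These counts restate the choice of the genes, and all 4 comparisons share the stimulated EV libraries.

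In 134 of the 4408 features (3.04%), all 3 stimulated EV libraries lay above the other 21, and the 8 genes were among them. By the log2 difference between stimulated EVs and the next highest group, Obox3, Obox1, Tbx3os1, Mcf2l, Chd2, Prep and Tcf7 held places 1 to 7 of all features, with 4.09 for Obox3 and 2.90 for Tcf7, and Foxo3 held place 16. The next places, 8 to 10, belonged to 4930525G20Rik, Vps54 and AW554918, at 2.75 to 2.70, and 18 features were above 2. The genes were chosen for high levels in stimulated EVs, so their places restate that choice and are no separate observation. Together, with Obox1 left out because it may hold the same reads as Obox3, the genes took 0.129 to 0.340% of all counts in stimulated EVs, 0.0208 to 0.0273% in GW4869 EVs, 0.00943 to 0.0214% in DMSO EVs and 0.00687 to 0.0104% in resting EVs and the cells.

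**Figure D3:**
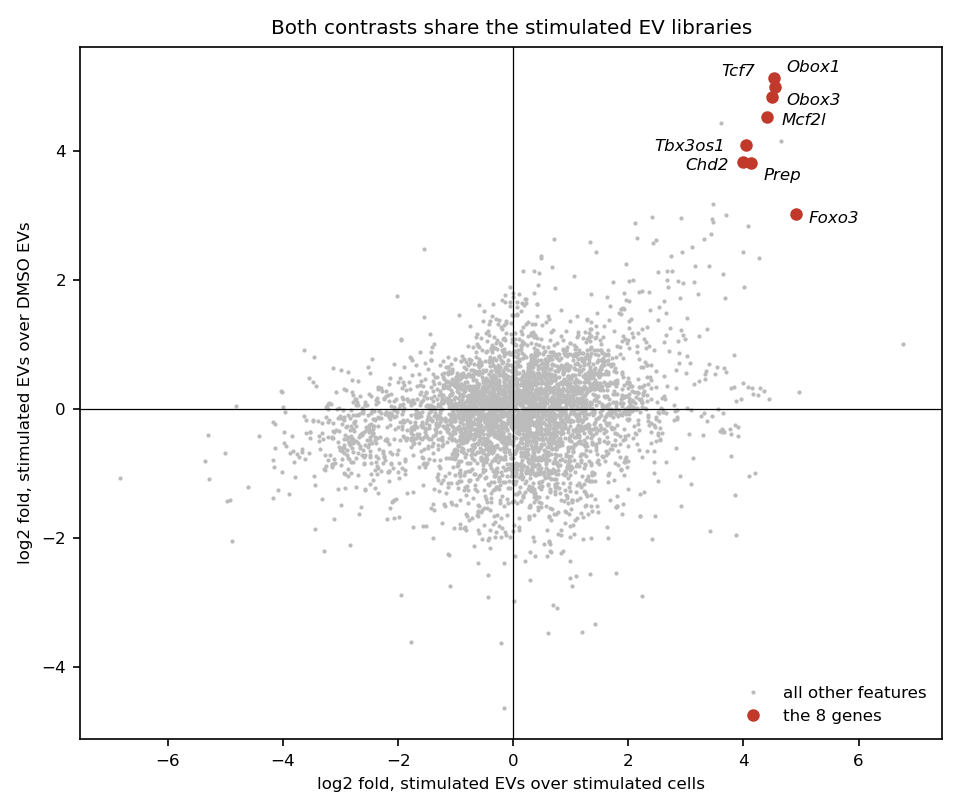
Log2 folds of all 4408 features for stimulated EVs over stimulated cells (horizontal) and over DMSO EVs (vertical), with the 8 genes in red. The genes lie at 3.999 to 4.91 on the horizontal and 3.02 to 5.13 on the vertical axis, and both axes share the stimulated EV libraries.

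The 3 stimulated EV libraries were not alike in these genes. Replicate 3 was the lowest of the 3 for 8 of 8 genes, by a log2 difference from the mean of replicates 1 and 2 of -2.19 for Foxo3, -1.91 for Obox1, -1.90 for Obox3, -1.71 for Prep, -1.30 for Chd2, -0.83 for Tcf7, -0.75 for Mcf2l and -0.57 for Tbx3os1. The median over all features was 0.07, and over protein-coding features -0.09. Only 0.136% of all features had a lower difference than Foxo3, and 11.1% a lower one than Tbx3os1. Replicates 1 and 2 differed by log2 values of -0.20 to 0.46 in the 8 genes. Even replicate 3 stood above the other 21 libraries for each gene, by 1.24 times for Foxo3, 2.73 times for Prep and 4.26 to 9.64 times for the rest.

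**Figure D4:**
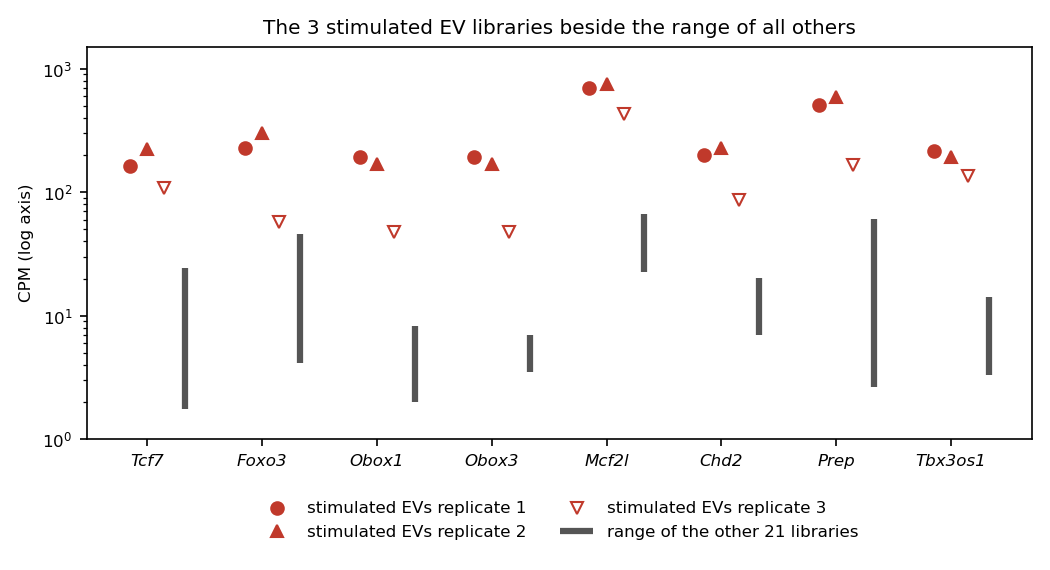
CPM of the 8 genes in the 3 stimulated EV libraries, on a log axis, beside a bar for the range of the other 21 libraries. Replicate 3 is the lowest of the 3 for every gene, and its distance to the other libraries is smallest for Foxo3 (56.99 against 46.12 CPM).

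The DMSO and GW4869 cultures had also been stimulated, yet each of the 8 genes was lower in their EVs than in stimulated EVs. GW4869 EVs and DMSO EVs overlapped for 8 of 8 genes, so that 0 were apart in either direction, where 11.6% of all features were higher and 16.1% lower in GW4869 EVs without overlap. The log2 folds of GW4869 over DMSO EVs were -0.38 ± 0.34 for Chd2 to 0.64 ± 0.41 for Prep, with 0.34 ± 0.44 for Tcf7 and 0.61 ± 0.39 for Foxo3. The stimulated and resting libraries on 1 side and the DMSO and GW4869 libraries on the other appear to come from 2 separately made count tables of 12 libraries each. No label says so: among names listed on several lines, Flt3l had 2 distinct lines in the first set and 1 in the second, and Pik3c2g had 1 and 2. The solvent, the tabulation and any other difference between the sets of cultures cannot be told apart in the contrast of stimulated with DMSO EVs. In the cells of these cultures, DMSO and stimulated libraries overlapped for 6 of 8 genes, and DMSO cells were lower for Prep (log2 fold -1.74 ± 0.50) and Tbx3os1 (-0.22 ± 0.30), where 25.7% of all features were lower and 21.3% higher without overlap.

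Whether vesicles and cells of 1 culture differ was tested where no library had been used to choose the genes, in the GW4869 cultures. Foxo3 rose in GW4869 EVs, with 27.65, 36.31 and 46.12 CPM, against a mean of 7.076 CPM in GW4869 cells, a log2 fold of 2.37 ± 0.45 (adjusted p = 5.65e-05, edgeR quasi-likelihood test with Benjamini-Hochberg adjustment over 4408 features). Prep rose with it, with 36.43, 42.61 and 60.81 CPM in GW4869 EVs, against a mean of 6.213 CPM in GW4869 cells, a log2 fold of 2.89 ± 0.49 (adjusted p = 1.18e-05, edgeR). In GW4869 cells these levels rest on 15, 10 and 18 counts for Foxo3 and 11, 11 and 16 for Prep. Both genes kept their calls with any 1 of the 6 libraries left out (highest adjusted p = 0.00087 for Foxo3 and 0.000189 for Prep, edgeR). Mcf2l fell, with means of 25.73 ± 2.54 CPM in GW4869 EVs and 37.92 CPM in GW4869 cells and a log2 fold of -0.56 ± 0.24 (adjusted p = 0.0414, edgeR).

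The other 5 genes did not pass in this contrast. Tcf7 had a log2 fold of -0.62 ± 0.43 (adjusted p = 0.198, edgeR), with overlapping libraries, and Obox1, Obox3, Chd2 and Tbx3os1 had -0.08 ± 0.55, 0.51 ± 0.47, -0.33 ± 0.35 and 0.02 ± 0.28 (adjusted p from 0.341 to 0.953, edgeR). In all, 3 of 8 genes passed, where 68.2% of all features did, 36.2% higher and 32% lower in GW4869 EVs, so passing was not more frequent than in the table as a whole. The call of Mcf2l ended with library totals as the scaling (0.20, adjusted p = 0.517, edgeR), which moved the median of all features by 0.76, and when any library but GW4869 cells replicate 3 was left out (adjusted p = 0.0822 to 0.236, edgeR). Relative to that shift, Foxo3 (3.12) and Prep (3.65) stayed above the median under library totals.

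The DMSO cultures are described without a test. Foxo3 and Prep were higher in DMSO EVs than in DMSO cells, by log2 folds of 1.77 ± 0.47 and 2.06 ± 0.49, and Chd2 was lower by -0.47 ± 0.34, without overlap in these 3 of 8 genes, where 35.4% of all features were higher and 27.4% lower. With library totals Chd2 was higher by 0.12. In resting cultures Foxo3 was higher in EVs than in cells by 1.55 ± 0.54 and Mcf2l lower by -0.87 ± 0.24 without overlap, where 27.6% of all features were higher and 20.6% lower, and Prep was level at -0.01 ± 0.46, since resting cells (24.77 ± 12.84 CPM) were near resting EVs (24.83 CPM).

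**Figure D5:**
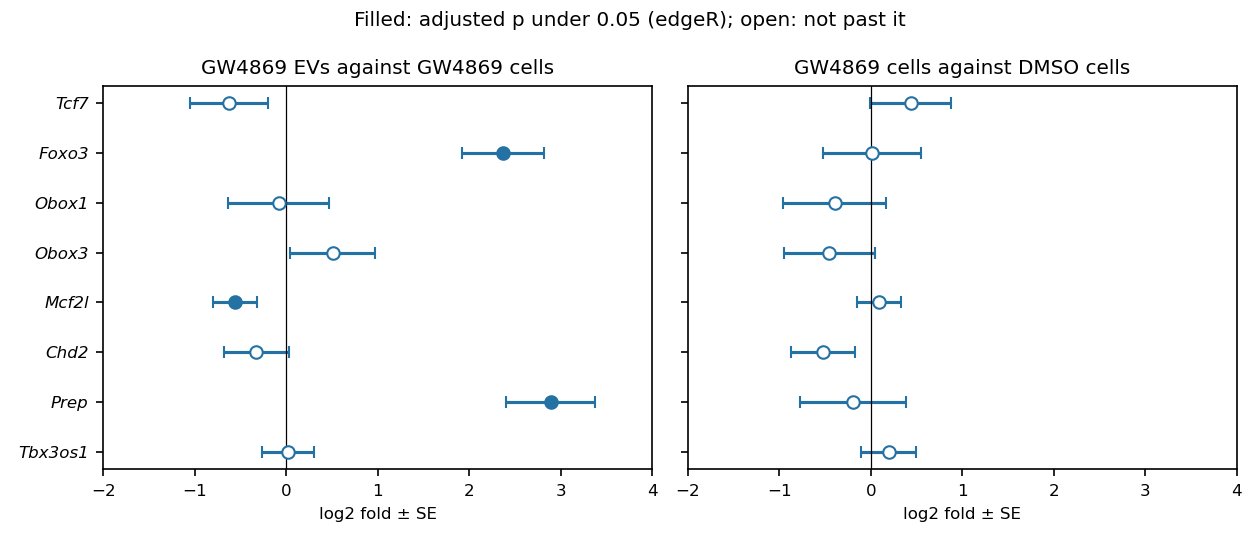
Log2 folds with SE of the 8 genes in the contrasts that shared no library with the choice of genes, GW4869 EVs against GW4869 cells (left) and GW4869 cells against DMSO cells (right). The spread behind the SE came from a model of all 24 libraries. Foxo3 (2.37) and Prep (2.89) lie far to the right in the left panel, Mcf2l (-0.56) is filled on the left of 0, and all points of the right panel are open.

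Whether GW4869 altered the fragments within the cells was tested against DMSO cells. None of the 8 genes passed: 0 of 8, where 2.99% of all features did (132 by edgeR, 128 by DESeq2, and 572 at an unadjusted p under 0.05). Tcf7 averaged 10.07 CPM in GW4869 cells and 7.416 CPM in DMSO cells, with a log2 fold of 0.44 ± 0.45 (adjusted p = 0.792, edgeR), and Foxo3 averaged 7.076 and 7.019 CPM in the same order, with 0.01 ± 0.53 (adjusted p = 0.998, edgeR). The lowest adjusted p was that of Chd2, 0.623 by edgeR, with a log2 fold of -0.52 ± 0.35. Obox1 (-0.39 ± 0.56) and Obox3 (-0.45 ± 0.50) were lower in GW4869 cells without overlap of libraries, where 7.35% of all features were, and their adjusted p were 0.862 and 0.814 by edgeR. The SEs of the 8 folds were 0.24 to 0.58 on the log2 scale.

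Between stimulated and resting cells, again with no test, 3 of 8 genes were apart without overlap, where 28.7% of all features were higher and 28.7% lower. Tcf7 (-1.53 ± 0.42) and Mcf2l (-1.03 ± 0.24) were lower and Tbx3os1 (0.98 ± 0.34) was higher in stimulated cells. With library totals, which shifted the median over all features by 0.82, these were -0.71, -0.23 and 1.79. Mcf2l averaged 29.33 CPM in stimulated cells and 59.99 ± 11.26 CPM in resting cells, and Tbx3os1 10.97 and 5.569 CPM in the same order. In EVs, Tbx3os1 was higher in DMSO than in resting EVs (0.94 ± 0.32), Tcf7 (-1.96 ± 0.41) and Chd2 (-0.41 ± 0.34) were lower, and 29.9% of all features were higher and 26.2% lower without overlap. The folds of Tcf7 and Mcf2l in stimulated over resting cells thus had the opposite sign to those in stimulated over resting EVs (3.04 and 4.25). The choice of the genes used this change of the EV-to-cell ratio, so the opposite signs are no separate observation. Scaled by library totals, the median over all features shifted by 1.12 for stimulated EVs and by 1.11 for DMSO EVs, each set against resting EVs, so the small folds between those cultures depend on the scaling. Chd2 in DMSO over resting EVs was then 0.69, with its sign turned.

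Outside the 8 genes, the features with the pattern most like Tcf7 over the 24 libraries, by Pearson's r of log2 CPM, were Vps54 (0.89), Bcl6 (0.88), 4930525G20Rik (0.84), Chrna7 (0.82) and Atp13a3 (0.82). Vps54 encodes a subunit of a vesicle tethering complex of the Golgi, and averaged 64.59 ± 23.43 CPM in stimulated EVs and 2.896 ± 0.489 CPM in DMSO EVs. Bcl6 encodes a transcriptional repressor of follicular helper T cells, and averaged 30.61 ± 10.65 CPM in stimulated EVs and 3.712 ± 1.684 CPM in DMSO EVs. Those most like Foxo3 were Cux2 (0.94), Tspan9 (0.94), Ttc7b (0.93), Gm26551 (0.93) and Tmem163 (0.92). Tspan9, a tetraspanin of cell membranes, averaged 170.8 ± 62.61 CPM in stimulated EVs, 39.34 ± 4.701 CPM in GW4869 EVs and 43.96 ± 20.42 CPM in DMSO EVs, and Cux2, a homeobox factor, 94.92 ± 55.47, 47.11 ± 5.204 and 43.26 ± 7.785 CPM in that order. Among the 8 genes, r with Tcf7 was highest for Mcf2l (0.91), and r with Foxo3 was highest for Prep (0.85). Tcf7 and Foxo3 themselves had an r of 0.60, and Obox1 and Obox3 one of 0.98. The 8 genes were all chosen for high levels in stimulated EVs, so a high r among them restates that choice. Libraries of a group and their depth are shared by all points of such correlations.

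The 10 other listed genes of a list of TCF/LEF, FOXO and other factors of naive T cells had log2 folds of stimulated over DMSO EVs with a median of 0.06. The lowest was Tcf7l1, a repressor of the TCF/LEF family, at -1.50 ± 0.45, and the highest was Lef1, the closest relative of Tcf7 in T cells, at 0.39 ± 0.27. Foxo1 stood at 0.36 ± 0.24.

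In GW4869 EVs against GW4869 cells, where tests apply, 5 of the 12 listed genes of that list of 22 (Tcf7 and Foxo3 included) rose and 3 fell, where 36.2% of all features rose and 32% fell, so the list passed about as often as the table. Its median was 0.30, against 0.18 for all features. Tcf7l1 rose by 4.01 ± 0.51, Foxo3 as above, Runx1, a factor of T cell development, by 2.22 ± 0.26 and Bcl11b, which T cells need for their identity, by 1.42 ± 0.30, while Ets1, a factor of lymphocyte survival, fell by 1.73 on the log2 scale (all adjusted p of 0.000211 or less, edgeR). Of the 6 listed of 10 CHD remodellers, Chd7 rose (0.84 ± 0.32) and Chd8, Chd3 and Chd1 fell (-1.59 to -0.96), with a median of -0.64. Of the 4 listed of 8 genes of the prolyl oligopeptidase family, Dpp10 (4.18 ± 0.63), Prep and Dpp6 (2.25 ± 0.25) rose, with a median of 2.57; Dpp6 and Dpp10 encode partners of potassium channels without peptidase activity. Of 14 T-box genes 2 were listed, Tbx3os1 and Tbx20, which fell by 1.29 on the log2 scale, and of 8 Obox genes only Obox1 and Obox3 were listed. In GW4869 cells against DMSO cells 0 genes passed in each of these lists.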

How the data were processed

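Small RNA was measured in 24 libraries. Reads were aligned with Bowtie to GRCm38 (mm10), per the submitters' processing notes; the sources used here do not give trimming, multiple alignments, strand, annotation or the counting tool. The values are raw read counts per feature as deposited by the authors, 4441 lines per file, of which 33 full repeats were dropped. No count was under 4, so features with fewer reads had been left out of the deposited counts.

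Counts were fitted with edgeR 4.0.16 in R 4.3.3: TMM factors, filterByExpr (minimum count 10, which removed 0 of 4408 features), 1 quasi-likelihood model of 8 groups without a replicate block, and Benjamini-Hochberg adjustment over 4408 features with calls under 0.05. CPM used TMM scaling, and correlations a prior count of 2. The test was checked on simulated data. The genes and lists were chosen with earlier results of these data known. Named beside the 8 genes were the 5 features of highest r with Tcf7 and with Foxo3, and per list at most 5 that passed by size of fold; 1 list is not reported here. Tests on the 8 genes were limited to the contrasts that shared no group with their choice. Alternatives were RLE factors, library totals, filters, DESeq2 1.42.0, a replicate block, smaller fits and leaving out each library. Counting error alone would understate the spread: no pair of replicates had a chi-square per degree of freedom under 3.54, so none was counted as a repeat of another.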

Additional observations from a re-analysis of the deposited data

How the results depend on the processing

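The calls of Foxo3 and Prep in GW4869 EVs against GW4869 cells, and the folds of the 8 genes in stimulated EVs against DMSO EVs and stimulated cells, kept their direction under every alternative run. Features called in GW4869 against DMSO cells were 132, but 65 with RLE factors, 217 with library totals, 6 with only the 12 DMSO and GW4869 libraries fitted (chosen after seeing the data) and 17 to 81 with 1 library left out; 0 of 8 genes passed each time. Features called in stimulated against DMSO EVs were 1038, but 349 with only those groups fitted and 669 to 1272 with 1 library left out. The causes were not tested.

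In GW4869 EVs against cells, library totals turned Tcf7 to 0.12, Obox1 to 0.66, Mcf2l to 0.20 and Chd2 to 0.44 and gave calls to Obox3 (1.25, adjusted p = 0.023, edgeR) and Tbx3os1 (0.77, adjusted p = 0.0335, edgeR). The median of all features was then 0.94, against 0.18 with TMM, so these turned signs and calls follow that shift, and Tbx3os1 lay below the median. Tbx3os1 was -0.115 with RLE factors, -0.116 with DESeq2, -0.107 with the filter of 50 counts in 3 libraries, -0.043 with only those groups and -0.0941 with the 12 libraries, and -0.14 to 0.30 with 1 library left out; Obox1 was -0.17 to 0.21 and Mcf2l -0.63 to -0.38 (adjusted p up to 0.236, edgeR). In GW4869 against DMSO cells, Foxo3 was -0.0734 with RLE factors and with DESeq2, -0.0209 with the filter and -0.124 with the 12 libraries, where Mcf2l was -0.044. With 1 library left out Foxo3 was -0.12 to 0.22, Mcf2l -0.0549 to 0.24, Prep -0.55 to 0.20 and Tbx3os1 -0.0457 to 0.36. No call of a gene was made in these.

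Samples of different groups share only a replicate number. Correlations of same-numbered deviations were -0.10 to -0.03 in GW4869 EVs and cells and -0.06 to -0.03 in GW4869 and DMSO cells. In these contrasts no library correlated best with its own number. With a replicate block, 2999 and 118 features passed in these contrasts, and the same number of the 8 genes, 3 and 0 (Mcf2l -0.56, adjusted p = 0.0428, edgeR). Low counts limit Obox1, Obox3 and Tcf7 outside stimulated EVs, Foxo3 in all cells and Prep in GW4869 and DMSO cells. There, 1 read more or less moves a value.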

Other observations

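1810026B05Rik, which overlaps Chd2, had single high libraries: 128 counts in stimulated EVs replicate 1 beside 13 and 20 in replicates 2 and 3, and 111 counts in GW4869 EVs replicate 1. Of the 5 features most like Foxo3, Tmem163, a zinc transporter gene, averaged 186 ± 23.45 CPM in stimulated EVs, 61.76 ± 15.47 CPM in GW4869 EVs, 36.36 ± 16.34 CPM in DMSO EVs and 8.55 ± 1.644 CPM in resting EVs, against 8.398 to 11.29 CPM in the means of the cells. Ttc7b, a scaffold of a lipid kinase complex, averaged 99.32 ± 10.77 CPM in stimulated EVs, 38.92 ± 13.41 CPM in GW4869 EVs, 29.46 ± 18.44 CPM in DMSO EVs and 16.24 ± 3.321 CPM in resting EVs, with 6.438 to 7.636 CPM in the means of the cells.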
